A study of Mus musculus with 57 samples.

Results

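The Slc25 genes encode the mitochondrial carriers, and they were taken here as every gene of the count tables whose symbol is Slc25a followed by a number. This gave 47 of the 52853 genes listed. RNA was sequenced in bulk from male mice homozygous for the Mfn2 R707W change (KI), which lies in the outer membrane fusion protein mitofusin 2, and from wild type (WT) mice, and the study asked how this change alters adipose tissue. The mice were allocated to diets at 5 weeks of age and kept on them for 6 months, either a high fat diet (HFD) with 45% of its energy as fat or chow. The groups were inguinal WAT on HFD (8 KI and 8 WT mice), inguinal WAT on chow (6 KI and 7 WT mice) and BAT on HFD (6 KI and 6 WT mice), 41 columns of counts in all. The KI line was made by editing embryos of C57BL/6J parents. It came from 1 founder and was expanded on a C57/BL6J background, so every KI mouse carries the allele of that founder. BAT on chow was not analysed here, and BAT can be compared with inguinal WAT on HFD only.

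Mitochondrial carriers are small proteins, nearly all of the inner membrane, that exchange a metabolite, nucleotide or cofactor of the matrix for one of the cytosol. They bring in phosphate, ADP and acylcarnitines, which feed ATP synthesis and fat oxidation, and they export citrate, from which white fat makes fatty acids in the cytosol. Uncoupling protein 1, the heat-producing protein of brown fat, belongs to the same protein family under another symbol, and Slc25a46 is an unusual member of the outer membrane.

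Libraries held 17572752 to 25680411 counts in inguinal WAT on HFD, 8668279 to 11720458 in inguinal WAT on chow and 8042591 to 10522554 in BAT, so the precision is highest in the first. Levels are given as CPM, the usual count per unit of library size, scaled over all 41 mice, and differences as log2 fold changes with their standard error (SE) from edgeR's quasi-likelihood test. A gene is called where the Benjamini-Hochberg adjusted p over all genes tested is below 0.01, and "rose" and "fell" are used of called genes only. The 7 brown adipocyte markers summed to 12181 to 22319 CPM in BAT and to 15.0 to 857 CPM in inguinal WAT, in keeping with the depot labels. Mfn2 itself was at 130 to 195 CPM in WT and 154 to 242 CPM in KI inguinal WAT on HFD and was not called in any comparison of genotypes. Its log2 fold change was 0.34 ± 0.09 there (adjusted p = 0.011), 0.36 ± 0.12 on chow (adjusted p = 0.084) and 0.29 ± 0.11 in BAT (adjusted p = 0.11), and this level does not show the R707W change. Several libraries stood apart in markers of other cell types. On chow, KI mouse 4 held 61178 CPM of 7 skeletal muscle markers, against 126 to 356 CPM in the other 5 KI mice. Results on chow that it moved are given with and without it. Lymphocyte markers summed to 563 CPM in KI mouse 2 and 404 and 207 CPM in WT mice 2 and 6 of inguinal WAT on HFD, against at most 13.9 CPM in the other 13 mice, and to 364 CPM in KI mouse 3 on chow, against at most 95.8 CPM in the other chow-fed mice. Muscle markers summed to 3838 and 2097 CPM in KI mice 3 and 5 of inguinal WAT on HFD, against at most 1188 CPM in the others, and to 2672 and 3002 CPM in WT mice 1 and 2 of BAT, against at most 921 CPM. Leaving out any 1 of these mice ended none of the calls between genotypes within a tissue and diet other than those of Slc25a17 and Slc25a42, which are described with them. Genes encoded in mitochondrial DNA took 2.15% to 3.68% of counts in KI and 5.40% to 14.8% in WT inguinal WAT on HFD, 1.73% to 3.84% and 2.39% to 5.12% on chow, and 10.6% to 12.8% and 14.6% to 18.4% in BAT. Leaving these genes out changed none of the 3 counts of members called between genotypes.

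Measured levels spread widely across the family. Per kilobase of listed gene length, the members with the highest levels in WT BAT were Slc25a1 (336 ± 281 CPM per kilobase, SD), the citrate carrier, Slc25a5 (325 ± 71.2) and Slc25a4 (289 ± 33.4), both ADP/ATP carriers, Slc25a39 (212 ± 34.9), which is needed for glutathione import, and Slc25a20 (158 ± 16.5), the carnitine/acylcarnitine carrier. The order among the first 3 lies within their spread between mice. In WT inguinal WAT on HFD the highest were Slc25a1 (134 ± 43.8 CPM per kilobase), Slc25a5 (108 ± 11.1), Slc25a4 (89.6 ± 9.09), the dicarboxylate carrier Slc25a10 (78.8 ± 17.9) and the phosphate carrier Slc25a3 (55.5 ± 2.88). Reads of Slc25a5 may be shared with processed copies of this gene, so its level is uncertain. At the other end, Slc25a41, an ATP-magnesium/phosphate carrier, had no count in 12 BAT libraries and at most 2 counts in any inguinal library. Slc25a21, Slc25a43, Slc25a54 and Slc25a53 were the next lowest in WT BAT, at 0.0113 to 0.149 CPM per kilobase, and Slc25a54, Slc25a21, Slc25a31 and Slc25a2 in WT inguinal WAT on HFD, at 0.0231 to 0.185. Summed over all 47 members, the family had a median of 6701 CPM in WT and 7576 CPM in KI BAT, 2506 and 2278 CPM in inguinal WAT on HFD, and 3005 and 3970 CPM on chow. The 5 members with the highest CPM made up 44.6% to 61.7% of this sum in the 6 groups.

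In inguinal WAT on HFD, KI mice had less of Slc25a1, a citrate carrier, Slc25a10, a dicarboxylate carrier, and Slc25a17, a peroxisomal carrier, and more of Slc25a33, a pyrimidine nucleotide carrier, and Slc25a42, a coenzyme A carrier. Of the 47 members, 41 passed the filter on low counts, and the other 6 (Slc25a2, Slc25a21, Slc25a31, Slc25a41, Slc25a43 and Slc25a54) had at most 16 counts in any of the 16 mice. Slc25a33 and Slc25a42 rose, which is 4.88% of the members tested against 6.21% of all 16471 genes. Slc25a1, Slc25a10 and Slc25a17 fell, which is 7.32% of the members against 5.24% of all genes. These shares were near the background, and the median log2 fold change was -0.03 for the members and 0.01 for all genes, so the family as a group did not stand apart. The other 36 members were not called, with absolute log2 fold changes of at most 0.69.

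On chow, 39 members were tested. Slc25a33 and Slc25a20 rose, which is 5.13% of the members against 1.96% of all 14629 genes, and no member fell, against 1.27% of all genes. At an unadjusted p below 0.05 there were 13 of the 39 members on chow, beside 3560 of all 14629 genes. DESeq2 called 6 members, all higher, beside 1116 of 27612 genes. Its totals, here and below, hold every gene with a count, without the filter used for edgeR. Shares from the 2 tools are thus not comparable. The median log2 fold change was 0.11 for the members and -0.01 for all genes. In BAT, 38 members were tested. Slc25a33 and Slc25a39 rose, which is 5.26% of the members against 1.36% of all 13267 genes, and no member fell, against 0.475% of all genes. At an unadjusted p below 0.05 there were 8 of the 38 members in BAT, beside 3242 of all 13267 genes. DESeq2 also called 2 members in BAT, both higher, beside 714 of 25076 genes. The median in BAT was 0.08 for the members and -0.01 for all genes.

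**Figure D1:**
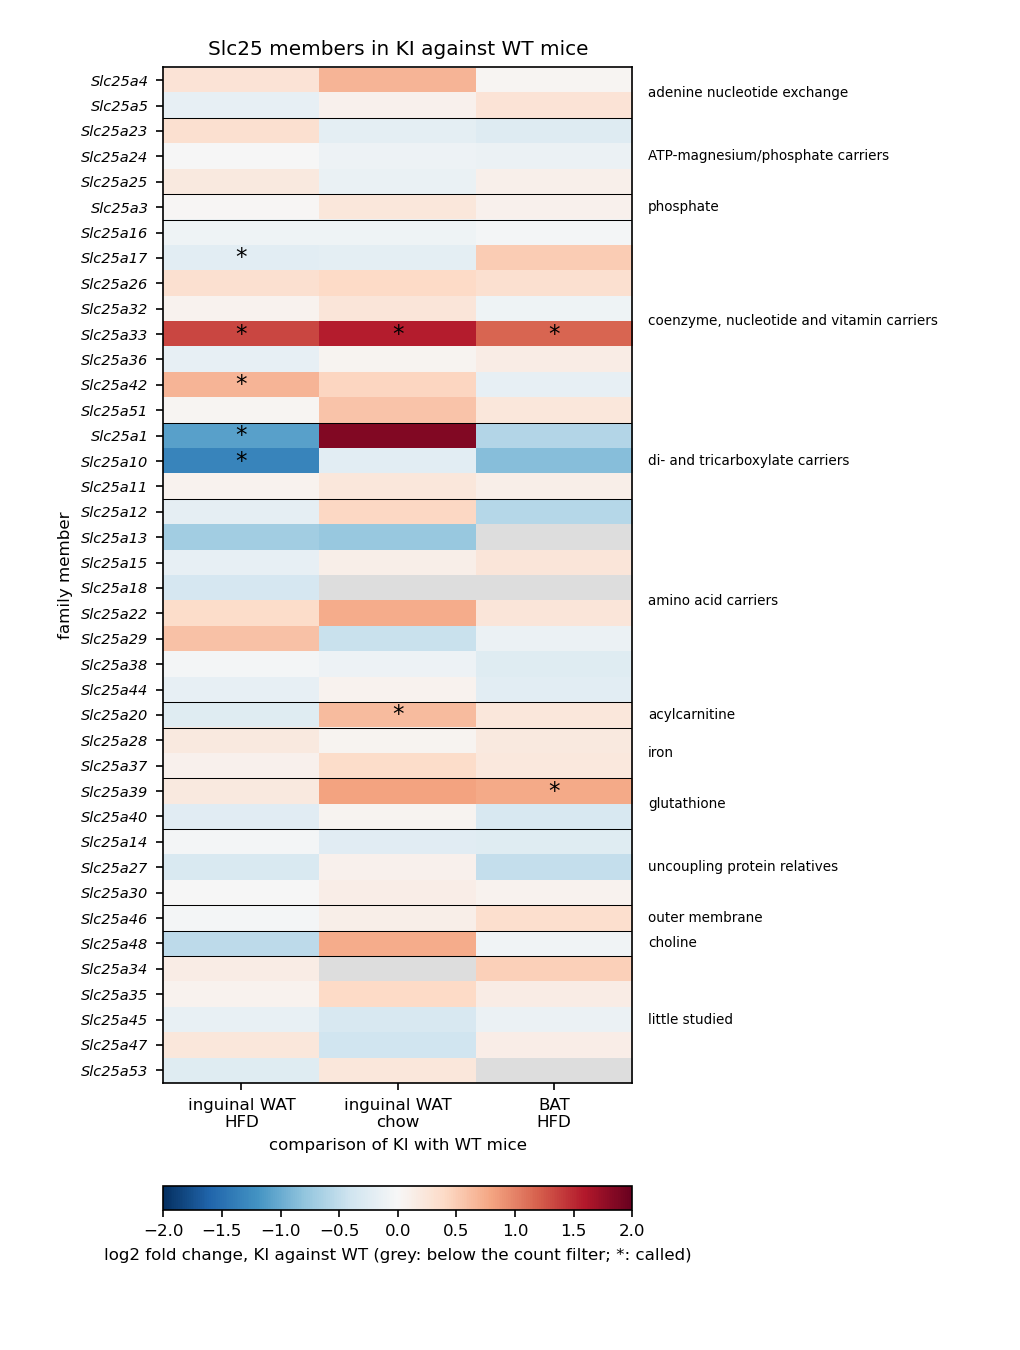
Log2 fold change of KI against WT mice for the members shown (rows, grouped by what the carriers move) in inguinal WAT on HFD, inguinal WAT on chow and BAT on HFD (columns), with the color scale under the plot from -2 to 2, grey for members below the count filter and an asterisk for called members. Slc25a33 is the only member with an asterisk in all 3 columns.

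Slc25a33 carries pyrimidine nucleotides across the inner membrane and was the only member called in all 3 comparisons of genotypes. In inguinal WAT on HFD its level was 8.55 to 14.3 CPM in WT mice (median 11.2) and 23.8 to 33.8 CPM in KI mice (median 29.1). On chow it was 13.2 to 21.6 CPM in WT mice (median 17.0) and 33.5 to 73.1 CPM in KI mice (median 49.7). In BAT it was 60.6 to 98.7 CPM in WT mice (median 79.1) and 151 to 244 CPM in KI mice (median 171). The genotypes did not overlap in any of the 3 comparisons, all KI values being the higher. The log2 fold change was 1.33 ± 0.10 in inguinal WAT on HFD (edgeR, adjusted p = 4.1e-08), 1.57 ± 0.16 on chow (edgeR, adjusted p = 3.6e-05) and 1.17 ± 0.14 in BAT (edgeR, adjusted p = 0.00016), or 2.52-fold, 2.98-fold and 2.25-fold. The KI effect was not shown to differ between diets (HFD minus chow -0.23, 95% interval -0.60 to 0.14, adjusted p = 0.60) or between depots (BAT minus inguinal WAT -0.12, 95% interval -0.46 to 0.22, adjusted p = 0.75). Without chow-fed KI mouse 4 the log2 fold change on chow was 1.62 (adjusted p = 6.6e-05). No alternative and no left-out mouse ended these calls.

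Slc25a36, the other pyrimidine nucleotide carrier, was not called with it. It was at 59.1 to 70.1 CPM in WT and 49.1 to 63.6 CPM in KI inguinal WAT on HFD, and its log2 fold change was -0.17 ± 0.06 there (adjusted p = 0.051), 0.06 ± 0.08 on chow (adjusted p = 0.67) and 0.15 ± 0.11 in BAT (adjusted p = 0.43).

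Position bears on Slc25a33. On GRCm38 it lies at chr4:149744036-149774277 on the minus strand, 1.84 megabases from Mfn2 at chr4:147873599-147904704, so mice that inherit the KI allele will mostly inherit the founder's copy of Slc25a33 with it. Of the other genes tested within 5 megabases of Mfn2 on either side, leaving out Slc25a33 and Gm13068, which shares its exons, 14 of 91 were called in inguinal WAT on HFD (15.4%, against 11.5% of all genes), 5 of 78 on chow (6.41% against 3.23%) and 1 of 69 in BAT (1.45% against 1.83%). Called higher in KI mice, in the same order, were 12 of the 91, 5 of the 78 and 1 of the 69 neighbours tested. Among all genes, 6.21%, 1.96% and 1.36% were called higher. The edited embryos and the colony were of the same mouse strain. An effect of the R707W change and one of the linked stretch of the founder chromosome cannot be told apart here. Among the other members on this chromosome, Slc25a34 lies 6.25 megabases from Mfn2 and Slc25a51 102 megabases from it. Neither was called in a comparison of genotypes, although Slc25a34 was below the filter on chow. The exons of Slc25a33 also share 281 bases with Gm13068 on the opposite strand, and whether counting used the strand is not given in the sources used here. Gm13068 rose as well, by 1.43 ± 0.12 in inguinal WAT on HFD (edgeR, adjusted p = 2.2e-07), 1.59 ± 0.16 on chow (edgeR, adjusted p = 5.5e-05) and 1.00 ± 0.14 in BAT (edgeR, adjusted p = 0.00077). Its share in the counts of Slc25a33 was not tested.

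**Figure D2:**
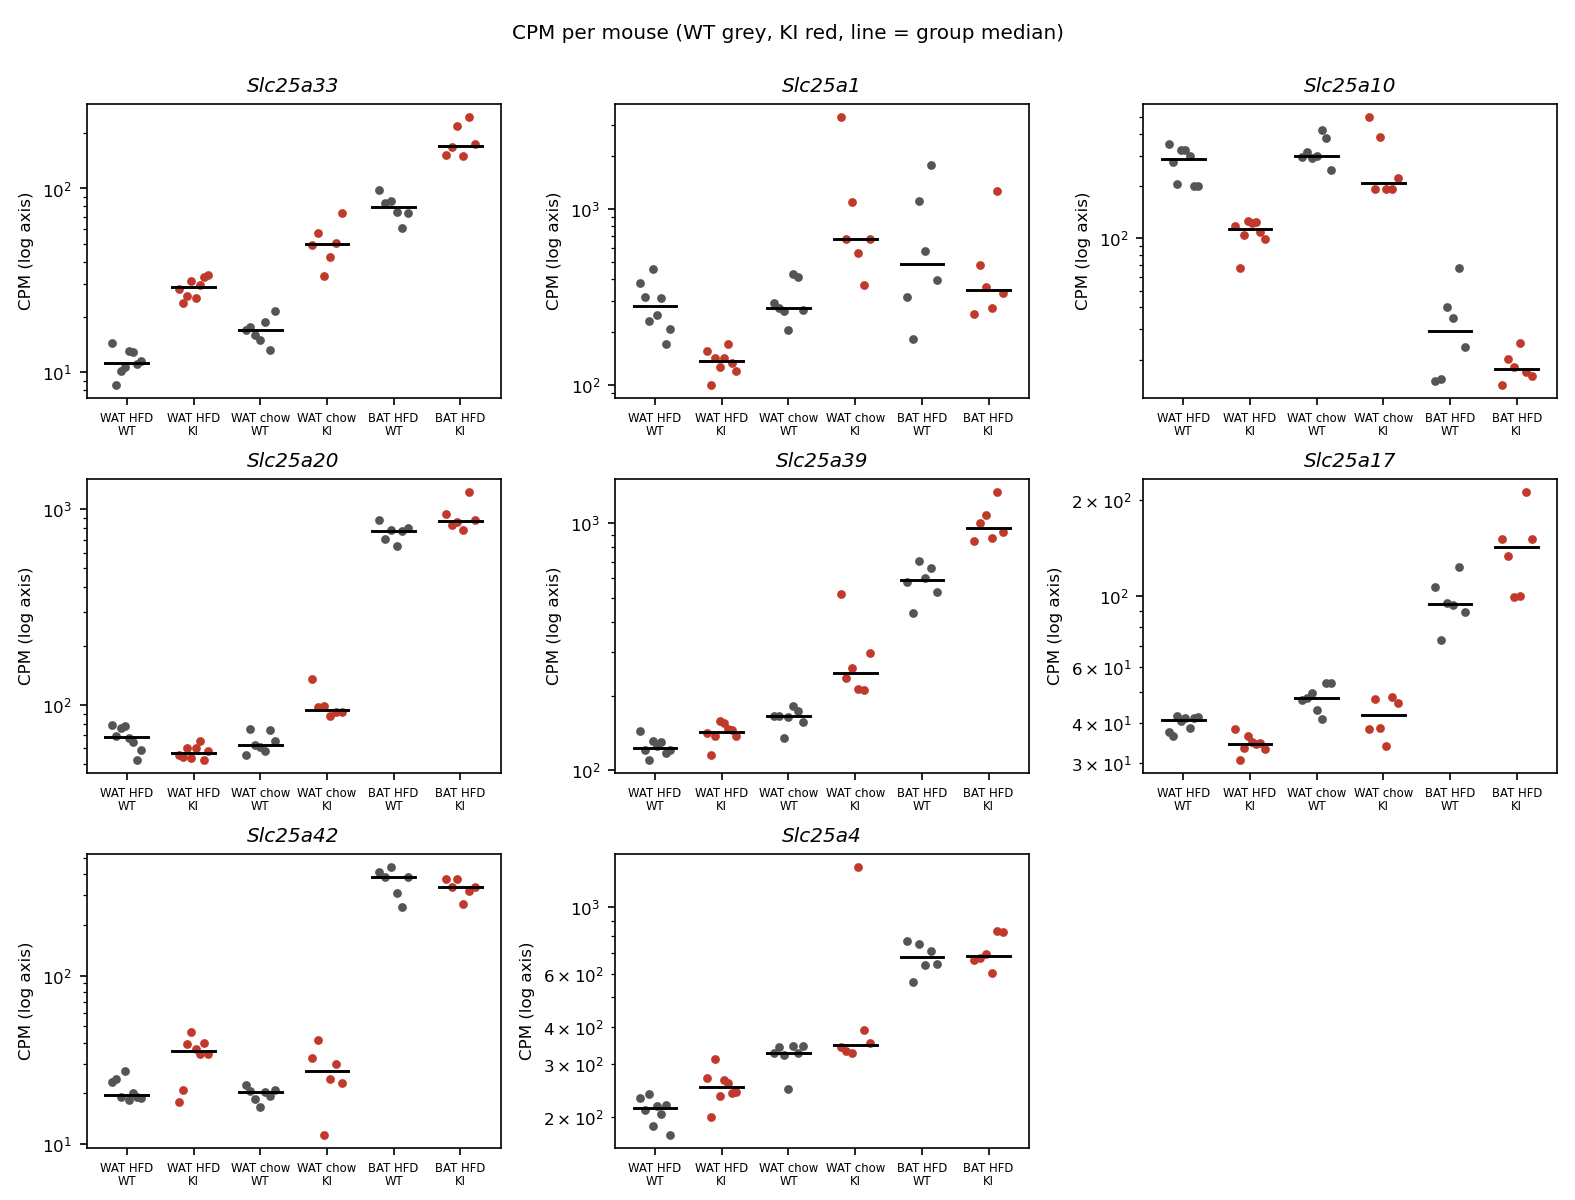
CPM per mouse (log axis) of 8 members in the 6 groups of genotype, depot and diet, with WT mice in grey, KI mice in red, each point 1 mouse and each line the group median. Red points of Slc25a33 lie above all grey points in each pair of groups, and the single high red point of Slc25a4 on chow is KI mouse 4, which also held the muscle markers.

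The promoters of Slc25a33 and of the pair that fell on HFD, Slc25a1 and Slc25a10, are shown so that the sequence next to these starts can be read beside the values. They are RefSeq sequences on GRCm38.p6, 300 bases from 250 before to 50 after the annotated start, 5′ to 3′ on the gene's strand. Slc25a33 is at chr4:149774218-149774517 (minus strand), Slc25a1 at chr16:17928170-17928469 (minus strand) and Slc25a10 at chr11:120491587-120491886 (plus strand). Capitals mark matches on either strand to 1 of 6 motifs searched.
Slc25a33: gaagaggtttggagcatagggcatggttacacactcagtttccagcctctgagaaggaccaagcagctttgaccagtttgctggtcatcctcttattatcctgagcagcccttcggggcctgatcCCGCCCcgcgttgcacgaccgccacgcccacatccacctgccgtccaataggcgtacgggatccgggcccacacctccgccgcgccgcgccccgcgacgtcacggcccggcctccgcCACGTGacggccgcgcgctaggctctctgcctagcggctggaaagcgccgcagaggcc
Slc25a1: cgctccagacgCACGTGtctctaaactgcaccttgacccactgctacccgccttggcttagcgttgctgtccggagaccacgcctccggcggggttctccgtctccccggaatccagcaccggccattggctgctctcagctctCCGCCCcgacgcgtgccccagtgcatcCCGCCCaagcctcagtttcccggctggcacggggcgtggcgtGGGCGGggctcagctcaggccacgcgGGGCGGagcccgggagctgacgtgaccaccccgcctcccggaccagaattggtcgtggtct
Slc25a10: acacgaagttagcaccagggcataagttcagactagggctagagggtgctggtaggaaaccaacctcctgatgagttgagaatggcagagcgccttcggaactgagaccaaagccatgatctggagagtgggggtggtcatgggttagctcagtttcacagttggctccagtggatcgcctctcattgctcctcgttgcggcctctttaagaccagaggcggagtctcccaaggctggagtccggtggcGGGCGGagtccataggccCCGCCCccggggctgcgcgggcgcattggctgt
The motifs were TCACNCCAC (a sterol regulatory element), TGATGNAA (the CHOP/ATF4 element), AAGGTCA (a half-site of estrogen-related receptors), CACGTG (the E-box), GCGCANGCG (a core of the nuclear respiratory factor 1 site) and GGGCGG (the GC box), where N is any base. In these 3 promoters the matches were to the E-box (Slc25a33 and Slc25a1) and to the GC box (all 3). The E-box was found in 7.17% of 32544 promoters of this length and in 7 of the 36 members with an entry, and the GC box in 35.9% and in 30 of 36. Of the other motifs, the sterol regulatory element was in 1.24% of promoters and 1 of 36 members, the CHOP/ATF4 element in 3.91% and 0 of 36, the receptor half-site in 4.71% and 1 of 36, and the nuclear respiratory factor 1 core in 6.29% and 2 of 36. The shares of promoters count distinct sequences, while those of members count genes with a match in any of their promoters. These are matches of letters only, and no binding was measured.

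Citrate leaves mitochondria through Slc25a1, and malate and succinate are exchanged for phosphate through Slc25a10. Both fell in KI inguinal WAT on HFD. Slc25a1 was at 172 to 456 CPM in WT mice (median 281) and 101 to 170 CPM in KI mice (median 138). Slc25a10 was at 201 to 349 CPM in WT mice (median 286) and 67.5 to 126 CPM in KI mice (median 113). For both, every KI mouse lay below every WT mouse, although the lowest WT and the highest KI level of Slc25a1 were close. The log2 fold change was -1.08 ± 0.17 for Slc25a1 (edgeR, adjusted p = 0.00017) and -1.32 ± 0.14 for Slc25a10 (edgeR, adjusted p = 2.8e-06), or 2.12-fold and 2.49-fold lower. With Slc25a33 these were the 3 members whose genotypes did not overlap in this tissue, 7.32% of the members tested against 4.53% of all genes. Slc25a11, the 2-oxoglutarate/malate carrier of this group, had a log2 fold change of 0.07 ± 0.07 (adjusted p = 0.53), and Slc25a21 was below the filter. In one fit of all 6 groups the fall of Slc25a1 was no longer called (-1.09, adjusted p = 0.053). The exons of Slc25a10 share 228 bases with Gm11788 on the opposite strand, which fell by 1.07 ± 0.16 on the log2 scale (edgeR, adjusted p = 8.9e-05). It was at 9.15 to 17.5 CPM in WT mice, far below Slc25a10. Beside these falls, 3 of 7 white adipocyte markers (Adipoq, Lep and Retn) also fell in KI mice on HFD, while the other 4 were not called, with log2 fold changes of 0.36 for Plin1, 0.29 for Pparg, -0.15 for Cidec and -0.11 for Fabp4. Their part in the levels of both carriers was not tested.

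On chow the difference in Slc25a1 had the other sign. Its level was 207 to 425 CPM in WT mice (median 274) and 369 to 3309 CPM in KI mice (median 676), and 5 of 6 KI mice lay above all 7 WT mice. KI mouse 1 was at 3309 CPM and the next, KI mouse 3, at 1091 CPM. The brown adipocyte markers of these mice summed to 857 and 553 CPM, against 151 to 467 CPM in the other KI mice. Their part in the level of Slc25a1 was not tested. The log2 fold change of 1.85 ± 0.43 was not called (edgeR, adjusted p = 0.018), nor was that of 1.15 ± 0.24 without mouse 1 (edgeR, adjusted p = 0.012) or that of 1.99 ± 0.44 without mouse 4 (edgeR, adjusted p = 0.016). The difference of the KI effect between diets, HFD minus chow, was called at -2.92 ± 0.46 (edgeR, adjusted p = 0.00093) and also without mouse 1, at -2.20 (edgeR, adjusted p = 0.00012). Slc25a10 on chow was at 247 to 422 CPM in WT and 193 to 499 CPM in KI mice, with overlapping groups, and its log2 fold change was -0.20 ± 0.23 (adjusted p = 0.64). For Slc25a10 the difference between diets was -1.10 ± 0.28 and not called (edgeR, adjusted p = 0.026). In BAT, Slc25a1 ranged from 183 to 1776 CPM in WT and from 253 to 1265 CPM in KI mice, a spread within each genotype wider than the difference between them (-0.59 ± 0.57, adjusted p = 0.57). Slc25a10 in BAT was at 15.0 to 67.4 CPM in WT and 14.4 to 24.8 CPM in KI mice (-0.86 ± 0.32, adjusted p = 0.12).

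**Figure D3:**
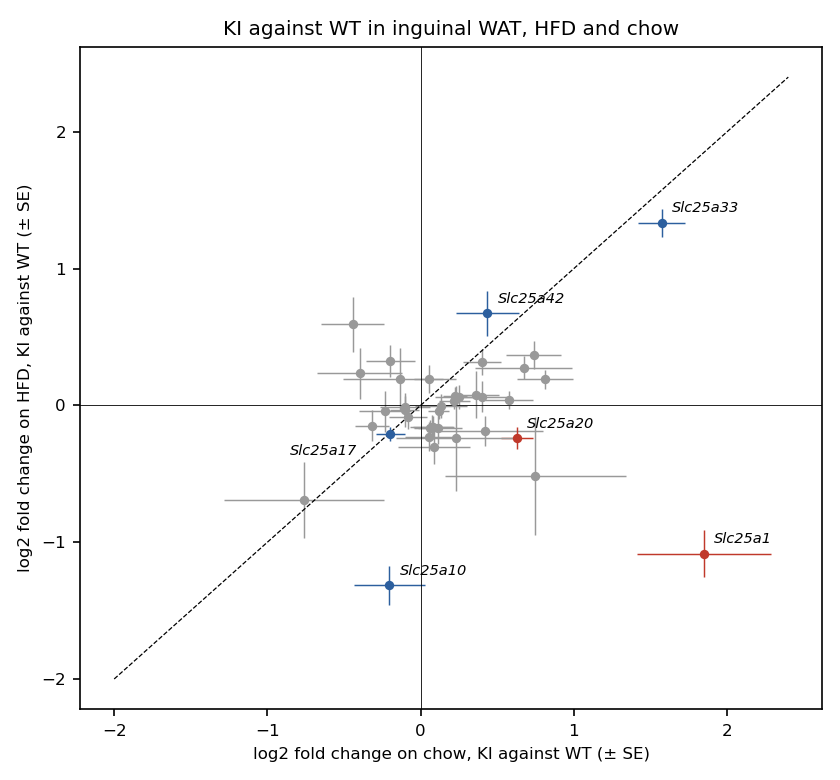
Log2 fold change of KI against WT mice in inguinal WAT on chow (x axis) and on HFD (y axis) for members tested in both, with SE bars and a dashed line of equal change. Members called in either diet are in blue, and the 2 whose KI effect differed between diets, Slc25a1 and Slc25a20, are in red, with positive values on chow and negative values on HFD.

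Slc25a20 exchanges acylcarnitines for carnitine, the step by which long-chain fatty acids enter the matrix. On chow it was at 55.2 to 75.0 CPM in WT mice (median 62.8) and 87.8 to 135 CPM in KI mice (median 94.6), with no overlap. It rose by 0.63 ± 0.11 on the log2 scale (edgeR, adjusted p = 0.0022), or 1.55-fold, and by 0.67 without mouse 4 (adjusted p = 0.0023). With mouse number as a block in the fit, this rise was no longer called (edgeR, adjusted p = 0.034). On HFD it was at 52.6 to 78.8 CPM in WT mice (median 68.9) and 52.6 to 65.5 CPM in KI mice (median 57.0), which overlap, and the log2 fold change was -0.24 ± 0.08 and not called (edgeR, adjusted p = 0.042). The difference of the KI effect between diets was called, at -0.86 ± 0.13 (edgeR, adjusted p = 0.00080). Members called for this difference were thus Slc25a1 and Slc25a20, both lower on HFD, which is 4.88% of the members against 0.425% of all 17400 genes, and none was higher, against 0.207% of all genes. At an unadjusted p below 0.05 there were 9 of 41 members for this difference, beside 2927 of all 17400 genes. DESeq2 called 3, all lower, beside 408 of 31966 genes. The brown adipocyte markers are given beside the rise of Slc25a20 on chow. They summed to 151 to 857 CPM in KI mice and 41.2 to 123 CPM in WT mice. Of the 4 tested, Cidea and Cox8b rose, and the log2 fold changes ran from -0.70 to 3.02. On HFD the same 2 rose, the sums being 28.5 to 62.8 CPM in KI and 15.0 to 33.4 CPM in WT mice. Of the 7 tested for the difference of the KI effect between diets, 1 was called, Elovl3, lower on HFD. All 7 entered this fit of both diets, although only 4 passed the filter on low counts in each diet alone. A marker can thus enter through the group where it is high, so this call is a description. The part of these markers in the level of Slc25a20 was not tested.

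Slc25a39 and Slc25a40 are closely related, and Slc25a39 is required for the import of glutathione. In BAT Slc25a39 was at 434 to 705 CPM in WT mice (median 589) and 852 to 1336 CPM in KI mice (median 959), with no overlap between genotypes. It rose by 0.75 ± 0.13 on the log2 scale (edgeR, adjusted p = 0.0036), or 1.68-fold. Without WT mouse 4 or WT mouse 6 this was no longer called, the adjusted p over left-out mice being 0.0037 to 0.014. On chow its KI mice, at 212 to 515 CPM, also lay above all WT mice, at 135 to 182 CPM, and the log2 fold change of 0.81 ± 0.18 was not called (edgeR, adjusted p = 0.012). It was called without mouse 1 (0.58 ± 0.10, adjusted p = 0.0038) and without mouse 4 (0.89 ± 0.18, adjusted p = 0.0089). In inguinal WAT on HFD the values were 110 to 144 CPM in WT and 116 to 158 CPM in KI mice (0.19 ± 0.07, adjusted p = 0.054), and the larger KI effect in BAT missed the threshold (difference 0.60 ± 0.15, adjusted p = 0.011). Slc25a40 had much lower levels and no called difference, its log2 fold change in BAT being -0.32 ± 0.20 (adjusted p = 0.35). The members whose genotypes did not overlap were Slc25a20, Slc25a33 and Slc25a39 on chow, 7.69% of those tested against 4.22% of all genes, and Slc25a33 and Slc25a39 in BAT, 5.26% against 3.69%.

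Slc25a42 imports coenzyme A into mitochondria. In inguinal WAT on HFD it was at 18.2 to 27.0 CPM in WT mice (median 19.6) and 17.7 to 46.0 CPM in KI mice (median 35.5). KI mice 1 and 2 were within or below the WT range and the other 6 above it. It rose by 0.67 ± 0.16 on the log2 scale (edgeR, adjusted p = 0.0067). This call was lost without any 1 of 12 of the 16 mice, with adjusted p of 0.00048 to 0.017 over all left-out mice, and held without KI mouse 1 or 2 or WT mouse 2 or 4. It was also lost with no filter on low counts (adjusted p = 0.012). Slc25a16, the related carrier, was not called (-0.09 ± 0.08, adjusted p = 0.51). In BAT, where Slc25a42 was at 254 to 438 CPM in WT mice, its log2 fold change was -0.17 ± 0.14 (adjusted p = 0.48), and the difference between depots was -0.80 ± 0.23 (adjusted p = 0.026).

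Slc25a17 is a carrier of coenzyme A, FAD and NAD found in peroxisomes. In inguinal WAT on HFD it was at 36.6 to 42.3 CPM in WT mice (median 41.0) and 30.8 to 38.4 CPM in KI mice (median 34.5), and 7 of 8 KI mice lay below all WT mice. It fell by 0.21 on the log2 scale (SE 0.05, edgeR, adjusted p = 0.0092), a call that was lost when 14 of the 16 mice were left out singly and held without KI mouse 1 or WT mouse 2. It was also lost with no filter on low counts (adjusted p = 0.049) and in one fit of all 6 groups (adjusted p = 0.18). In BAT it was at 73.0 to 124 CPM in WT mice (median 94.5) and 99.7 to 211 CPM in KI mice (median 142), with overlap (0.50 ± 0.17, adjusted p = 0.077). The KI effect on Slc25a17 differed between depots, BAT minus inguinal WAT, by 0.75 ± 0.17 (edgeR, adjusted p = 0.0058). It was the only member called for this difference, 2.44% of those tested against 1.58% of all 17214 genes for higher calls, and none was lower, against 1.24% of all genes. At an unadjusted p below 0.05 there were 9 of 41 members for the difference between depots, beside 3794 of all 17214 genes. DESeq2 called 3 members, all higher, beside 848 of 31635 genes. The call of Slc25a17 was lost without WT mouse 2, 3, 4 or 6 of BAT, with adjusted p up to 0.013. The tissue difference takes BAT and inguinal WAT as separate mice, since the sources used here do not state whether they came from the same ones.

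The ADP/ATP carriers Slc25a4 and Slc25a5, whose exchange is the main traffic of the family, showed no called difference in RNA between genotypes. Exchange itself was not measured here. Slc25a4 was at 175 to 239 CPM in WT and 201 to 313 CPM in KI inguinal WAT on HFD (0.27 ± 0.08, adjusted p = 0.026) and at 563 to 772 and 604 to 833 CPM in BAT (0.03 ± 0.11, adjusted p = 0.88). On chow it was at 248 to 346 CPM in WT mice and at 327 to 390 CPM in 5 KI mice, while KI mouse 4, the library with the muscle markers, was at 1351 CPM. The log2 fold change on chow was 0.67 ± 0.32 with this mouse (adjusted p = 0.21) and 0.11 ± 0.10 without it (adjusted p = 0.53). Slc25a5 had log2 fold changes of -0.16 ± 0.08 and 0.08 ± 0.13 in inguinal WAT of HFD-fed and chow-fed mice and of 0.28 ± 0.16 in BAT. The phosphate carrier Slc25a3 had 0.03 ± 0.06, 0.22 ± 0.10 and 0.09 ± 0.11 in the same order. None of the amino acid carriers was called for genotype, with 8 tested on HFD, 7 on chow and 6 in BAT, and the glutamate carrier Slc25a22 had the lowest adjusted p of them in inguinal WAT (0.37 ± 0.10 on HFD, adjusted p = 0.014, and 0.74 ± 0.18 on chow, adjusted p = 0.021). The iron carriers Slc25a28 and Slc25a37 were not called either, nor were the uncoupling protein relatives Slc25a14, Slc25a27 and Slc25a30.

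Carriers outside the symbol rule were looked at beside these. Of 5 relatives in the same protein family (Ucp1, Ucp2, Ucp3, Mtch1 and Mtch2), Ucp3 rose in KI inguinal WAT on HFD (0.75 ± 0.16, edgeR, adjusted p = 0.0029) and no other was called for genotype, Ucp1 being tested in BAT only. Of 18 inner membrane transporters of other families, 1 rose and 2 fell in inguinal WAT on HFD, 1 rose on chow and none was called in BAT. The mitochondrial pyruvate carrier subunit Mpc2 fell on HFD (-0.53 ± 0.08, edgeR, adjusted p = 0.00012), and Mpc1 rose on chow (1.33 ± 0.22, edgeR, adjusted p = 0.0024). Sfxn1, the serine transporter, rose on HFD (1.00 ± 0.09, edgeR, adjusted p = 4.6e-07), and Letm1 fell by 0.29 on the log2 scale. Of the 3 outer membrane channels, Vdac1 and Vdac3 rose on HFD, Vdac1 on chow and Vdac3 in BAT. Over all genes, 6.21% rose and 5.24% fell in inguinal WAT on HFD. The shares were 1.96% and 1.27% on chow and 1.36% and 0.475% in BAT.

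BAT and inguinal WAT of WT mice on HFD differed in most of the family. BAT levels were higher for 23 of the 41 members tested, 56.1% against 26.9% of all genes, and lower for 8, 19.5% against 29.0% of all genes, with a median log2 fold change of 0.76 for the members and -0.09 for all genes. The depots were deposited as separate tables, so a batch and the depot cannot be told apart, and in bulk tissue fewer cells of a type and less RNA per cell cannot be told apart either. The macrophage and fibroblast markers were lower in BAT, all 6 of each list, against 29.0% of all genes.

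The members furthest above inguinal WAT were 2 of low level there. Slc25a48, a choline carrier, was at 30.3 to 82.2 CPM in BAT and 0.0991 to 1.34 CPM in inguinal WAT (6.08 ± 0.37, edgeR, adjusted p = 6.8e-14). Slc25a34, whose substrate is little studied, was at 18.3 to 34.7 CPM in BAT and 0.230 to 1.21 CPM in inguinal WAT (5.09 ± 0.29, edgeR, adjusted p = 1.7e-15). Next came Slc25a42, with 254 to 438 CPM against 18.2 to 27.0 CPM (4.10 ± 0.17), Slc25a20, with 651 to 883 against 52.6 to 78.8 CPM (3.48 ± 0.11), and Slc25a33, with 60.6 to 98.7 against 8.55 to 14.3 CPM (2.78 ± 0.13). For all 5 the depots did not overlap. The NAD carrier Slc25a51 (2.69 ± 0.11) was also among the members well above inguinal WAT. In all, 7 of the 9 coenzyme, nucleotide and vitamin carriers were higher in BAT, against 56.1% of the members tested and 26.9% of all genes. Of the same 9, Slc25a36 was lower, against 29.0% of all genes.

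Slc25a10 had by far the largest difference in the other direction, with 15.0 to 67.4 CPM in BAT and 201 to 349 CPM in inguinal WAT (-3.06 ± 0.26, edgeR, adjusted p = 5.4e-11), while Slc25a1 was higher in BAT (1.32 ± 0.39, edgeR, adjusted p = 0.0047) with overlapping mice. The aspartate/glutamate carrier Slc25a13 (-1.29 ± 0.34), the ATP-magnesium/phosphate carrier Slc25a24 (-1.21 ± 0.15), the iron carrier mitoferrin 1, Slc25a37 (-1.11 ± 0.16), and Slc25a45 (-0.92 ± 0.14) were the next 4 of those called, and their mice did not overlap either. Slc25a13 was at 5 to 9 counts per mouse in BAT, below the filter there, and entered the comparison only through inguinal WAT, where it is higher, so its lower call, 1 of the 8, is a description.

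**Figure D4:**
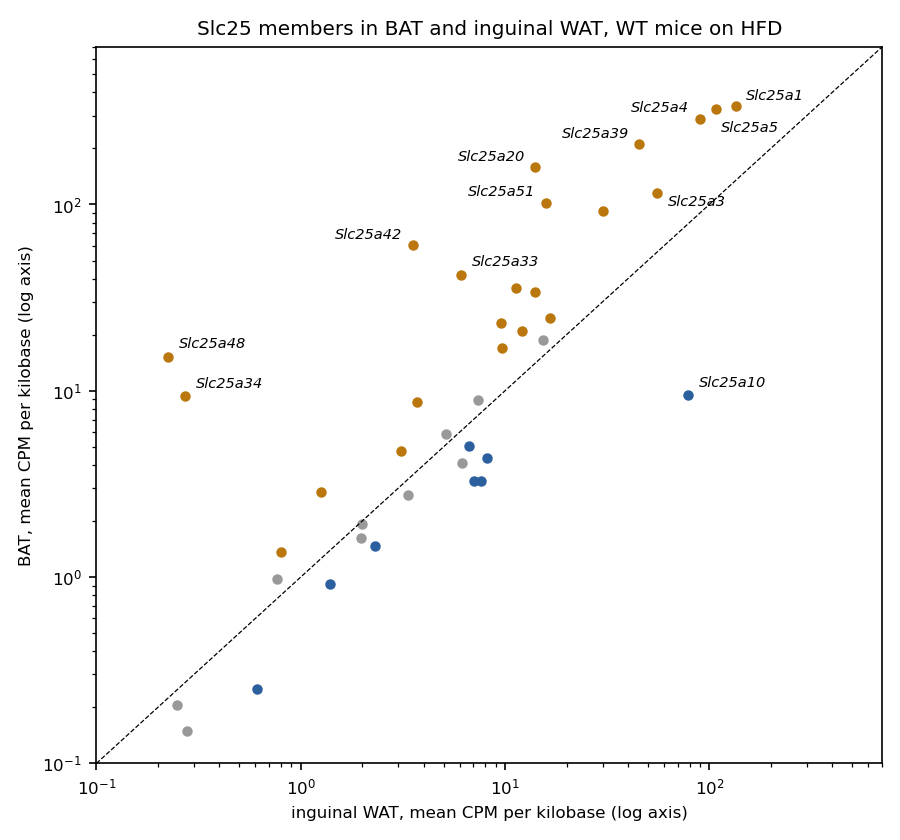
Mean level per kilobase of gene length (CPM per kilobase, log axes) of the members shown in WT mice on HFD, in inguinal WAT (x axis) and BAT (y axis), with the dashed line of equal level. Members called higher in BAT are in orange, those called lower in blue and the others in grey, and Slc25a10 lies far below the line while Slc25a48 and Slc25a34 lie far above it.

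Several pairs of related carriers were split by depot. Slc25a39 was higher in BAT (2.22 ± 0.10) and Slc25a40 lower (-0.61 ± 0.15). Slc25a33 was higher and Slc25a36 lower (-0.41 ± 0.09). Slc25a42 was higher, and Slc25a16 was not called (0.19 ± 0.14, adjusted p = 0.21). The ADP/ATP carriers were alike in direction, with 1.69 ± 0.10 for Slc25a4 and 1.58 ± 0.13 for Slc25a5. Slc25a46, the outer membrane member, was also higher in BAT (0.82 ± 0.09, edgeR, adjusted p = 1.3e-09).

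Diet was compared in inguinal WAT of WT mice. On HFD 4 of 41 members rose, 9.76% against 13.1% of all genes, and 11 fell, 26.8% against 15.2% of all genes. The median log2 fold change was -0.22 for the members and 0.04 for all genes. HFD and chow libraries differed in depth and were deposited as separate tables, so diet and a batch cannot be told apart.

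Slc25a29, a carrier of basic amino acids, was at 3.80 to 6.74 CPM on chow and 1.04 to 2.76 CPM on HFD, and the diets did not overlap (-1.28 ± 0.20, edgeR, adjusted p = 6.7e-06). Slc25a47 fell by 1.18 ± 0.23 on the log2 scale (edgeR, adjusted p = 0.00016) from 3.02 to 8.11 CPM on chow to 1.42 to 3.59 CPM on HFD. The S-adenosylmethionine carrier Slc25a26 (-0.66 ± 0.11), the phosphate carrier Slc25a3 (-0.55 ± 0.07) and Slc25a33 (-0.55 ± 0.13) followed. Slc25a3 was at 393 to 504 CPM on chow and 288 to 326 CPM on HFD, again with no overlap. Slc25a33 thus fell with HFD in WT mice and rose with the KI genotype in both diets, and KI mice on HFD, at 23.8 to 33.8 CPM, lay above WT mice on either diet.

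The 4 that rose on HFD were Slc25a27, an uncoupling protein relative (0.86 ± 0.17, edgeR, adjusted p = 0.00021), Slc25a37 (0.79 ± 0.16, edgeR, adjusted p = 0.00018), Slc25a24 (0.67 ± 0.12, edgeR, adjusted p = 5.4e-05) and Slc25a36 (0.35 ± 0.06, edgeR, adjusted p = 2.8e-05). Slc25a27 was at 3.90 to 6.04 CPM on chow and 6.93 to 11.4 CPM on HFD. Slc25a37 was at 18.4 to 34.8 CPM on chow and 33.4 to 73.3 CPM on HFD, with a slight overlap. The highest was WT mouse 2, which held 404 CPM of lymphocyte markers, and the other WT mice on HFD reached at most 46.4 CPM. The rise was called with any 1 mouse left out, at log2 fold changes of 0.64 to 0.91. Slc25a1 (-0.07 ± 0.31) and Slc25a10 (-0.24 ± 0.19), the pair that fell with genotype on HFD, were not called for diet in WT mice. The endothelial markers Cdh5, Emcn and Pecam1 rose on HFD, 3 of 5, their list summing to 1273 to 1611 CPM in WT mice on HFD and 867 to 1206 CPM on chow. The brown adipocyte markers moved as well, summing to 15.0 to 33.4 CPM in WT mice on HFD and 41.2 to 123 CPM on chow. Of the 7 tested, Cidea and Cox8b fell and Elovl3 rose. Only 4 of the 7 passed the filter on low counts in each diet alone. Elovl3 may have entered only through the group where it is high, so its call is a description. The part of either list in these values was not tested.

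**Figure D5:**
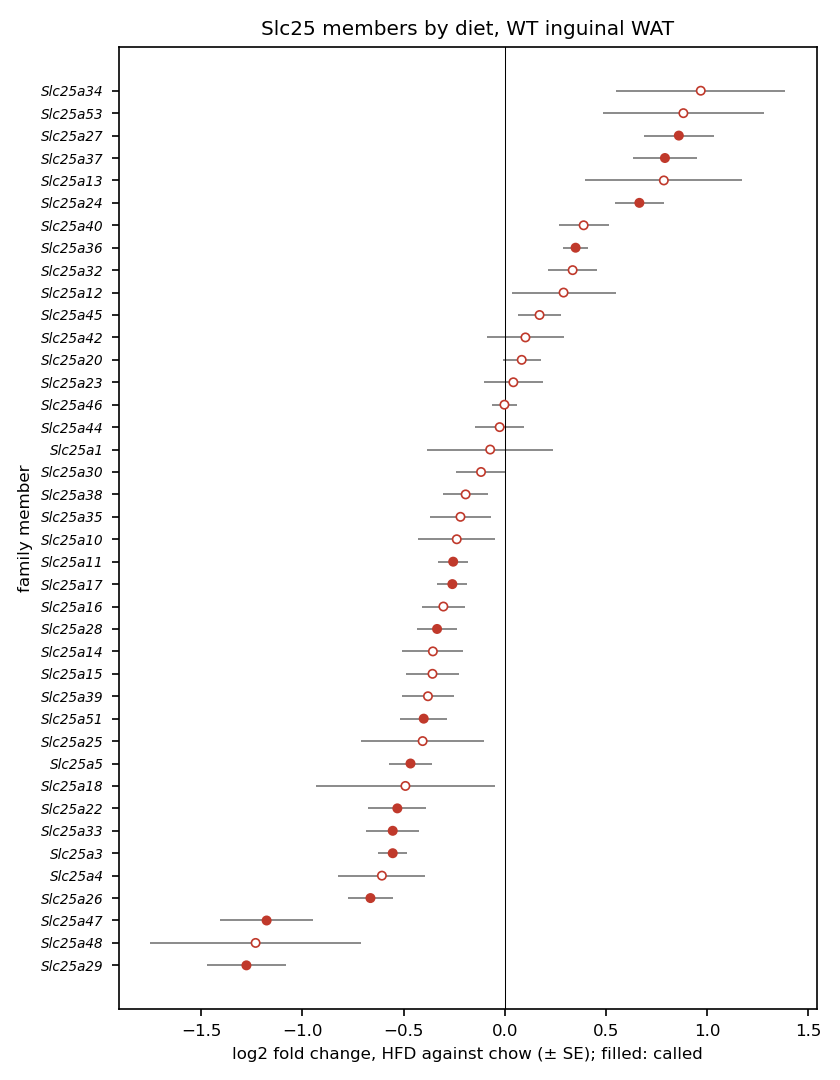
Log2 fold change of HFD against chow in inguinal WAT of WT mice for the members shown, sorted by value, with SE bars and filled points for called members. The 4 filled points right of 0 are Slc25a27, Slc25a37, Slc25a24 and Slc25a36, and the lowest 2 filled points are Slc25a29 and Slc25a47.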

How the data were processed

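RNA from BAT and inguinal WAT was sequenced by the authors as paired-end reads after poly(A) selection, and their processing notes name cutadapt, STAR, SAMtools and featureCounts with the GRCm38 build (versions and strand setting not given in the sources used here). The deposited values are raw counts per gene, 1 column per mouse, in 3 tables of 54838 rows. Inguinal WAT on HFD has 1 column per mouse although its labels give technical repeats, so these appear to be combined. Rows without a length or count (1884) were left out, and 200 rows of 99 repeated symbols held identical values and were kept once per symbol, which left 52853 genes.

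Each comparison was fitted with edgeR 4.0.16 (R 4.3.3, limma 3.58.1): filterByExpr, TMM, robust quasi-likelihood test, and Benjamini-Hochberg adjustment over all genes tested. The SE is the absolute log2 fold change divided by the square root of F. KI was compared with WT within each table. The difference of the KI effect between diets or depots was an interaction term, and depots and diets were compared in WT mice within the same fits. CPM were scaled by TMM over all 41 mice. Alternatives were DESeq2 1.42.0, other scaling, filters and thresholds, a replicate block, 1 fit of all 6 groups and each mouse left out. The scripts were tested on simulated data. The p-values measure the spread between mice.

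Members, gene lists, pairs and motifs were chosen with earlier results of these data known. Members named are those called in a comparison of genotypes or in a difference between diets or depots, their pairs, the 5 called members with the largest rise and fall by depot and by diet, and the 5 with the highest and lowest level per length in each depot. Other members and transporters named were chosen by role after their values were seen. Promoters are RefSeq sequences, with entries for 36 of 47 members. The sources used here do not say if the same mice gave BAT and inguinal WAT. The values of 1 member are not reported here or drawn in the figures, although it stays in every count, sum and fit.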

Additional observations from a re-analysis of the deposited data

Results flagged for a closer look

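Single mice lay far from the rest of their group in 7 of 60 groups looked at, and the critical values used flag about 1 in 20 groups by chance. The groups are not independent, since 6 of the 7 come from 2 mice. KI mouse 1 on chow was the highest of its group for Slc25a1 (3309 CPM, next 1091), Slc25a39 (515 CPM, next 297) and Slc25a20 (135 CPM, next 99.3). Its brown adipocyte markers were also the highest of its group (857 CPM, next 553). KI mouse 5 of BAT was the highest for Slc25a1 (1265 CPM, next 482), Slc25a20 (1220 CPM, next 942) and Slc25a36 (76.9 CPM, next 53.1). KI mouse 2 of inguinal WAT on HFD was the lowest for Slc25a10 (67.5 CPM, next 98.9). The same library held 563 CPM of lymphocyte markers, against 5.24 to 9.92 CPM in the other 7 KI mice, and without it the log2 fold change of Slc25a10 was -1.24 (edgeR, adjusted p = 1.9e-06).

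The KI effect differed between diets in inguinal WAT for Slc25a1, by -2.92 on the log2 scale (HFD minus chow), and for Slc25a20, by -0.86. Slc25a17 had a KI effect that differed between depots by 0.75 (BAT minus inguinal WAT). These differences were tested by interaction terms in edgeR.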

How the results depend on the processing

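None of the members named by the stated rule changed direction, in the comparisons they were named for, under the alternatives run, and the counts of members called by depot and by diet in WT mice stayed within 1.5 times the reported value. In inguinal WAT on HFD, 5 members were called, against 10 at an adjusted p below 0.05, 3 with no filter on low counts, 3 in one fit of all 6 groups and 3 to 7 with a mouse left out. On chow 2 were called, against 6 at 0.05, 6 by DESeq2, 6 in one fit and 2 to 4 with a mouse left out (4 without KI mouse 5). In BAT 2 were called, against 4 in one fit and 1 to 2 with a mouse left out (1 without WT mouse 4 or 6). For the difference between diets, 2 became 4 at 0.05. For the difference between depots, 1 became 5 at 0.05, 3 by DESeq2, 2 with at least 10 counts in every mouse, and 0 to 2 with a mouse left out (0 without BAT WT mouse 2, 4 or 6). The cause was not tested. Over all genes, 472 calls on chow became 1116 by DESeq2 and 1088 in one fit, 243 in BAT became 714 and 834, 1886 in inguinal WAT on HFD became 1242 in one fit, the 110 between diets became 408 by DESeq2 and 168 with at least 10 counts in every mouse, and the 485 between depots became 848 by DESeq2.

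Mouse numbers were not taken to pair the samples, and the correlations do not settle whether they do. Same-numbered mice had correlations of deviations from -0.244 to 0.654 in inguinal WAT on HFD, -0.276 to 0.179 on chow and -0.077 to 0.432 in BAT. In the same order, 1 of 8, 0 of 6 and 3 of 6 correlated best with their own number. With a replicate block, members called were 3 in inguinal WAT on HFD, 1 on chow, 2 in BAT, 2 for diets and 0 for depots, and calls over all genes were 1545, 102, 363, 42 and 180. The members no longer called were Slc25a17 (adjusted p = 0.031) and Slc25a42 (0.025) in inguinal WAT on HFD, Slc25a20 on chow (0.034) and Slc25a17 for depots (0.044). Depth limits low members most, such as the 9 below the filter in BAT.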
